A study of Rattus norvegicus with 8 samples.

Results

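Unstimulated rat aortic smooth muscle cells that had received an siRNA against Giver (siGiver) were compared with cells that had received a non-targeting control siRNA (siNTC). The items compared were all probe sets annotated with 1 gene symbol, 20832 of the 31099 on the array. A filter on low levels left 16138 of them, and 4694 lay below it. Each symbol was represented by its brightest remaining probe set, for 11373 genes in all.

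The cells were isolated by enzymatic digestion of thoracic aortas (male Sprague-Dawley rats) and grew in medium with serum. They were exposed to siRNA for 48 h and then to phosphate-buffered saline (PBS) for 3 h, with 2 Affymetrix arrays for siNTC and 2 for siGiver. The other 4 arrays carry the same 2 siRNAs followed by 100 nM angiotensin II (Ang II) for 3 h. The labels give no age and no word on whether the paired arrays are separate cultures. The p-values therefore rest on a spread between arrays that may be technical only. The siRNA acts for a limited time in a cell population, and none of the annotated probe sets carries the name Giver, so the degree of knockdown was not analysed here.

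Giver is a long noncoding RNA known to be induced by Ang II in smooth muscle cells of vessels, and its gene lies beside that of the orphan nuclear receptor Nr4a3. Smooth muscle cells of large arteries move between a contractile state, marked by smooth muscle myosin and calponin, and a state in which they divide, migrate and lay down matrix. Passage in serum favours the second state. Cell division itself runs on waves of transcription. E2F factors switch on DNA replication genes late in G1, and B-Myb complexes switch on mitotic genes in G2.

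The arrays measured the level of each probe set on a log2 scale after normalization between arrays, so each difference is relative to the typical transcript and levels of different probe sets cannot be compared. Differences are siGiver minus siNTC with their standard error (SE, 2 arrays per group), and an adjusted p under 0.05 in a linear model across all genes counted as a call. Of the 11373 genes, 1818 (16%) were higher and 2169 (19.1%) were lower in siGiver cells, 35.1% in all. The count of lower genes was 1433 without siGiver PBS replicate 1. The median difference over all genes was -0.0047, the 5th percentile -0.41 and the 95th percentile 0.44. At least 1.5-fold changes were found in 291 higher genes (2.56%) and 205 lower genes (1.8%), and 28 and 26 genes differed at least by 1 on the log2 scale. The 4 PBS arrays separated by siRNA on a first principal component with 83.4% of their variance, at -14 and -14.1 for siNTC and 14.5 and 13.6 for siGiver.

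**Figure D1:**
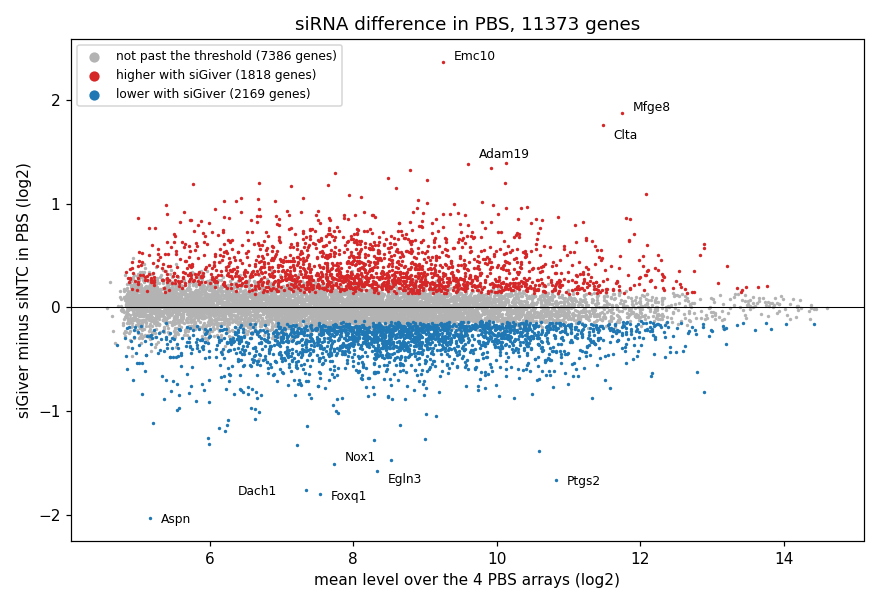
Difference between siGiver and siNTC cells in PBS (vertical, log2) against the mean level over the 4 PBS arrays (horizontal, log2), 1 point per gene. Red points are the 1818 genes called higher, blue points the 2169 called lower and grey points the 7386 not past the threshold. Calls lie at all levels, and Emc10 (2.37) and Aspn (-2.03) are the outermost.

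Transcripts added to the samples as controls moved with the comparison. The 24 probe sets for poly-A RNAs of bacterial origin averaged 8.24 and 8.31 on the siNTC PBS arrays and 8.70 and 8.73 on the siGiver PBS arrays, a difference of 0.44, and all 24 were higher. With Ang II the order was opposite, at 8.37 and 8.36 for siNTC and 8.23 and 8.03 for siGiver, a difference of -0.24. The 18 hybridisation control probe sets, added after labelling, averaged 10.64 and 10.66 on the siNTC PBS arrays and 10.90 and 10.72 on the siGiver PBS arrays. They differed by 0.16 in PBS (0.072 without siGiver PBS replicate 1 and 0.25 without siGiver PBS replicate 2) and by -0.11 with Ang II. An alternative scaling in which every array has the same mean of poly-A controls, added after these values were seen, would lower every PBS difference by 0.44 and give 184 higher and 9682 lower genes, with a median of -0.445. Below, "higher" and "lower" are relative to the median gene. A called gene with a difference between 0 and 0.44 lies above that median and below 0 under the alternative scaling. Whether total RNA per cell differed was not tested.

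**Figure D2:**
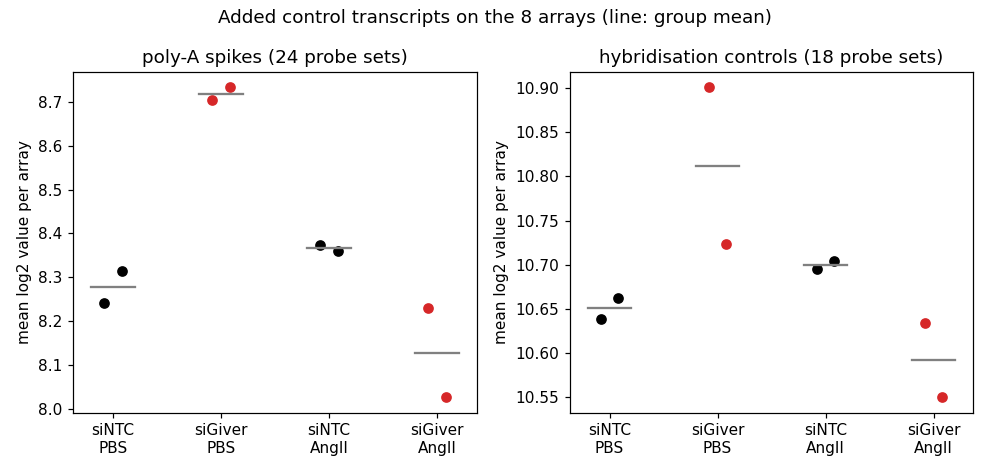
Mean log2 value of the added control transcripts on each of the 8 arrays (points) with the group mean (line), for 24 poly-A probe sets (left) and 18 hybridisation probe sets (right). siGiver arrays are red. The poly-A controls are highest on the siGiver PBS arrays (8.70 and 8.73) and lowest on the siGiver Ang II arrays (8.23 and 8.03).

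The cultures carried the smooth muscle programme, with all 11 smooth muscle markers past the filter on every array, among them Tagln and Acta2, the transgelin and smooth muscle actin genes. Summed on a linear scale, these markers lay between 49940 and 50180 on siNTC arrays and between 53700 and 54530 on siGiver arrays. Endothelial markers were near the floor of the array: 9 of 10 measured members, Pecam1, Kdr, Tek, Vwf and Emcn included, lay below the filter value of 4.81, and only Esam, a junctional adhesion molecule, was tested (0.49 ± 0.073, adjusted p = 0.0017). Of 11 leukocyte markers 6 lay below the filter, among them Ptprc, Adgre1, Csf1r and Cd163. Of the 5 tested, Cd14 lay between 8.31 and 8.433 and Laptm5 between 6.825 and 7.025 on the PBS arrays. Cd68, Lyz2 and Aif1 lay between 4.956 and 5.759, and none of the 5 was called. All 7 adipocyte markers lay below it. Among 10 fibroblast markers tested, Serpinf1 and Mfap5 were higher by 0.42 and 0.31, and the sums lay between 9062 and 9335 on siNTC and between 10120 and 10220 on siGiver arrays. Of the Schwann cell markers, Ncam1 was lower by 0.45 on its brightest probe set, while its other probe sets stood at -0.02 and 0.03. In such bulk samples, fewer cells of a type and less RNA per cell cannot be told apart.

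The 25 genes that were highest relative to siNTC differed by 1.02 to 2.37, or 2.04- to 5.18-fold. Emc10, a subunit of the endoplasmic reticulum (ER) membrane complex that inserts membrane proteins, stood at 8.05 and 8.09 on the siNTC arrays and at 10.43 and 10.46 on the siGiver arrays. Its groups were separated by far more than the spread of either, with a difference of 2.37 ± 0.058 (5.18-fold, adjusted p = 4.29e-06). The rest of the complex did not follow it. Among the 9 subunits tested, named after their values were seen, Emc1 (0.29) and Emc6 (0.17) were also higher, Emc3 was lower by 0.21, and the other five did not pass. The Emc1 call was lost without siNTC PBS replicate 1, siNTC PBS replicate 2 or siGiver PBS replicate 2, the Emc6 call without siNTC PBS replicate 1, siGiver PBS replicate 1 or siGiver PBS replicate 2, and the Emc3 call without siNTC PBS replicate 2 or siGiver PBS replicate 1. In the wider list of 42 ER membrane complex and translocon genes, 6 were higher and 13 lower, with a median of -0.0166. These are 14.3% and 31%, against 16% and 19.1% of all genes.

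Mfge8 encodes a secreted glycoprotein of the arterial wall that binds integrins and apoptotic cells. Its level was 10.79 and 10.84 with siNTC and 12.70 and 12.68 with siGiver, 3.68-fold higher. Clta, the clathrin light chain A gene, stood at 10.52 and 10.67 against 12.39 and 12.32, which is 1.76 ± 0.060 or 3.4-fold. Cltb (-0.14) and Cltc (-0.15), the other clathrin chains, named after their values were seen, did not pass, though Cltb was called lower without siGiver PBS replicate 1 and Cltc without siNTC PBS replicate 2. Clathrin, endosome and Golgi genes as a list leaned to the lower side, with a median of -0.125. Of 51 genes 8 were higher (15.7% against 16% of all genes) and 17 lower (33.3% against 19.1%). With a trended, robust estimate of the spread 26 were lower (51% against 22.7% of all genes). The 8 higher genes became 4, 3 and 3 without siGiver PBS replicate 1, siGiver PBS replicate 2 and siNTC PBS replicate 1.

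Tpp1, a lysosomal tripeptidyl peptidase, was 9.26 and 9.24 with siNTC and 10.54 and 10.64 with siGiver, 2.54-fold higher, without overlap. Of 49 lysosome and autophagy genes 32.7% were called, near the 35.1% of all genes. Tpp1 was 1 of 5 higher members, beside the proton pump subunit gene Atp6v1b2 (0.62), and 11 were lower, among them the autophagy gene Atg12 (-0.51) and the cathepsin gene Ctsz (-0.49). The higher and lower counts were 3 and 7 without siGiver PBS replicate 1, and again 3 and 7 without siNTC PBS replicate 1, and 3 members were higher without siNTC PBS replicate 2, but 9 after cyclic loess and 8 with a trended, robust estimate of the spread. Adam19, a membrane-anchored metalloprotease, stood at 8.92 and 8.90 against 10.37 and 10.23 (2.62-fold). Dcaf7, a WD-repeat scaffold protein, stood at 8.15 and 8.11 against 9.44 and 9.47 (2.5-fold).

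Others of the 25 had varied roles. Lrrc32, which holds latent TGF-beta at the cell surface, was higher by 1.25 ± 0.050 and Txndc12, an ER thioredoxin, by 1.20 ± 0.057. Dpm2, a subunit of the dolichol-phosphate mannose synthase, was higher by 1.08 ± 0.062, and Plod2, a collagen lysyl hydroxylase, by 1.09 ± 0.047. Calcium leaves the cell through sodium-calcium exchangers, and Slc8a1 (1.04 ± 0.061) and the potassium-dependent Slc24a3 (1.06 ± 0.074) were both higher. Adra1b, the alpha-1B adrenergic receptor gene, was higher by 1.03 ± 0.15. Its siNTC arrays lay apart, at 5.95 and 5.42, against 6.65 and 6.77 with siGiver, and it had the largest SE of the 25. Hey1, a Notch-induced repressor, was 5.20 and 5.15 against 6.28 and 6.46 (2.29-fold). Dck, a nucleoside salvage kinase, was higher by 1.18. The histone chaperone Asf1b (1.06), the mitotic activator Mybl2 (1.05) and the BLM helicase gene Blm (1.02) are members of the chromatin, mitosis and DNA repair lists described below.

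Of the 25 genes that were lowest, 23 were 1.99- to 3.5-fold lower, and Aspn and Chsy3 had siGiver levels under the filter value. Aspn, asporin, a small leucine-rich proteoglycan that binds TGF-beta, stood at 6.16 and 6.22 with siNTC and at 4.25 and 4.06 with siGiver, a difference of -2.03 ± 0.067. Both siGiver levels lie where the array resolves little, so a fold is only a bound. Against the filter value of 4.81, Aspn was at least 2.6-fold lower and Chsy3, a chondroitin synthase gene, at least 1.94-fold. A second Aspn probe set read 6.52 and 6.56 against 3.68 and 3.57, a difference of -2.91, so both probe sets placed the siGiver arrays near the floor.

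Lowered transcripts also included regulators of transcription and of oxygen and prostaglandin biology. Foxq1, a forkhead factor, stood at 8.46 and 8.42 against 6.64 and 6.62 (3.5-fold lower), and Dach1, a nuclear transcription cofactor, at 8.25 and 8.20 against 6.26 and 6.67 (3.39-fold). The Dach1 siGiver arrays lay further apart than those of Foxq1, and both lay below both siNTC arrays. Ptgs2, the inducible cyclooxygenase, stood at 11.66 and 11.65 against 9.89 and 10.09, 3.18-fold lower (adjusted p = 4.05e-05). Egln3, an oxygen-sensing prolyl hydroxylase, was 9.13 and 9.11 against 7.50 and 7.58, 2.99-fold lower.

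Nox1, the catalytic subunit of a superoxide-generating NADPH oxidase of smooth muscle, stood at 8.50 and 8.48 with siNTC and at 7.01 and 6.94 with siGiver, 2.85-fold lower (adjusted p = 1.22e-05). The other oxidase catalytic subunit tested, Nox4, named after its value was seen, was higher by 0.43 ± 0.066. The partners Cyba, Ncf4 and Noxo1 stood at -0.12, 0.06 and -0.07 and did not pass. Aldh1a3, which makes retinoic acid, was lower by 1.47 ± 0.055, and Tnfaip6, a secreted hyaluronan-binding protein, by 1.39 ± 0.060. Olr1, the lectin-like receptor for oxidized low-density lipoprotein, stood at 6.48 and 6.74 against 5.38 and 5.32 (2.4-fold lower).

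Other lowered genes serve growth signals and vessel biology. Vegfd, a ligand of VEGF receptors, was lower by 1.19 ± 0.070, Ptprb, a receptor tyrosine phosphatase, by 1.05 ± 0.051, and Etv4, an ETS factor downstream of growth factor receptors, by 1.07 ± 0.089. Ass1, the argininosuccinate synthase that resupplies arginine, was lower by 1.01 ± 0.064, and the pseudokinase gene Trib2 by 1.14 ± 0.069. In all 50 genes of both directions the siGiver and siNTC arrays did not overlap, as the choice of these genes required. Over all genes 67.2% had groups that did not overlap.

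**Figure D3:**
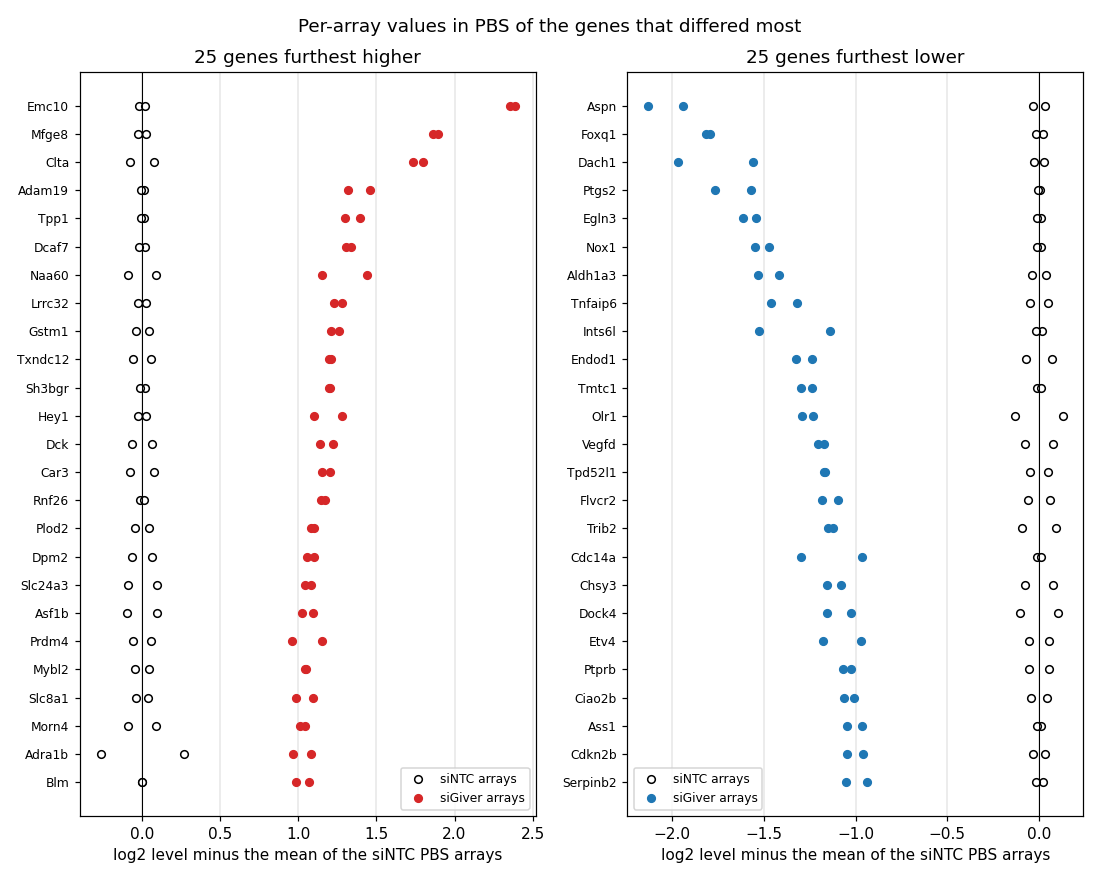
Levels of the 25 genes furthest higher (left, red) and the 25 furthest lower (right, blue) on each of the 4 PBS arrays, as log2 level minus the mean of the siNTC arrays. Open points are siNTC arrays and filled points siGiver arrays. The siNTC arrays lie close to 0 and apart from the siGiver arrays in every gene, with the widest siNTC pair in Adra1b (5.95 and 5.42).

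Cell-division genes had the highest medians of the 36 lists shown in the plot of gene lists. Of 38 DNA replication and licensing genes, 32 were higher and none lower (16% of all genes were higher), with a median of 0.544, and of 55 mitosis and spindle genes 54 were higher and none lower, with a median of 0.562. Smc4, a condensin subunit, stood at 0.23 and did not pass. Under the scaling on poly-A controls the medians were 0.103 and 0.121, with 9 higher and 5 lower replication genes and 16 higher and no lower mitosis genes. Over all 11373 genes the same scaling gave a median of -0.445.

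All 6 subunits of the licensing helicase, Mcm2 to Mcm7, were higher, by 0.54 (Mcm2), 0.66 (Mcm3), 0.54 (Mcm4), 0.61 (Mcm5), 0.68 (Mcm6) and 0.90 (Mcm7). Mcm7 stood at 9.08 and 9.15 on the siNTC arrays and at 10.04 and 9.98 on the siGiver arrays, a difference of 0.90 ± 0.050 (1.86-fold, adjusted p = 4.34e-05). Cdt1, which loads this helicase, was 7.07 and 7.12 against 7.92 and 7.95. Pole, the leading-strand polymerase, was higher by 0.88 ± 0.051, Rrm1, a subunit of ribonucleotide reductase, by 0.79 ± 0.047 and Gins1, part of the active helicase, by 0.71 ± 0.051. In each of these genes the siGiver arrays lay above both siNTC arrays.

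Mitotic genes differed by similar amounts. Mybl2, which encodes B-Myb, stood at 6.11 and 6.20 against 7.20 and 7.20 (2.06-fold, adjusted p = 3.53e-05). Cdk1, the mitotic kinase, was 9.91 and 9.92 with siNTC and 10.59 and 10.64 with siGiver (1.63-fold). The kinetochore genes Spc24 (0.90 ± 0.048) and Nuf2 (0.72 ± 0.042), the mitotic kinesin gene Kif20a (0.77 ± 0.047) and the Aurora kinase gene Aurkb (0.82 ± 0.054) were higher as well. The range over the 54 called members was 0.21 to 1.05.

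The promoters of these genes carry short elements known for cell-cycle genes. RefSeq promoter windows on the rat assembly GRCr8, from 250 bases before to 50 after the start, were matched by symbol for 46 of the 55 mitosis genes, 34 of the 38 replication genes and 9482 of the 11373 genes tested. TTTGAA, the core of the cell cycle homology region, was present on either strand in 67.4% of the mitosis genes, 14.7% of the replication genes and 12.1% of all genes tested. CCAAT was present in 73.9%, 61.8% and 39.1%. An E2F-type octamer, TTTCCCGC, TTTGGCGC or TTTCGCGC, was present in 4.35%, 44.1% and 3.52%. These are matches of letters in a window, and binding was not measured. Over all 27457 genes with a promoter entry the shares were 19.4%, 39.6% and 1.93%.

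Promoters of 5 genes are printed to show where these letters lie. They are the 150 bases before the start, 5′ to 3′ on the gene's strand, for mitotic genes at chr20:19265143-19265292 (Cdk1, plus strand), chr8:79981659-79981808 (Ccnb2, minus strand) and chr5:137255800-137255949 (Cdc20, minus strand). The replication genes lie at chr12:22163179-22163328 (Mcm7, minus strand) and chr13:42404353-42404502 (Mcm6, minus strand), all on GRCr8. Capitals mark the TTTGAA element, the CCAAT box (as its reverse complement where it lies on the other strand) and the E2F-type octamers, which overlap CCAAT in Mcm7 and each other in Mcm6. Ccnb2 and Cdc20, chosen for display after the matches were seen, encode cyclin B2 and an activator of the anaphase-promoting complex.
Cdk1: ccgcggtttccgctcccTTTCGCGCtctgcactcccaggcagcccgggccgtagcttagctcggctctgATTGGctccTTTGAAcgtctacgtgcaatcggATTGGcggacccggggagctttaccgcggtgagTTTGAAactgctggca
Ccnb2: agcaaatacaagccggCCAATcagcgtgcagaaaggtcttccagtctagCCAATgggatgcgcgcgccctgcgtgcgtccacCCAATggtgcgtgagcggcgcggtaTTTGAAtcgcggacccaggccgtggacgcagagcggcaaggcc
Cdc20: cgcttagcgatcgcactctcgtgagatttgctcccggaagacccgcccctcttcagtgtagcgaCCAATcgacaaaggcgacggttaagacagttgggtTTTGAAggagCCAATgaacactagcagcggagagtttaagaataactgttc
Mcm7: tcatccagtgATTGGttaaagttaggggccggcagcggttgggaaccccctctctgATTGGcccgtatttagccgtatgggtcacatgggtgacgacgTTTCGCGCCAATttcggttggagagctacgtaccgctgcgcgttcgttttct
Mcm6: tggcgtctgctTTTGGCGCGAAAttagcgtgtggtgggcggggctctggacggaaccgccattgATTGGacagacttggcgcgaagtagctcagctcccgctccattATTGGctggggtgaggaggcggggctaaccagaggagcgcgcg
The mitotic promoters hold TTTGAA 2, 1 and 1 times and CCAAT 2, 3 and 2 times in these 150 bases, with TTTGAA within the last 72 bases before the start. Cdk1 also holds 1 E2F-type octamer, and Ccnb2 and Cdc20 hold none. The Mcm7 and Mcm6 promoters hold no TTTGAA, 3 and 2 CCAAT, and 1 and 2 E2F-type octamers. Among all genes called higher, 14.7% held TTTGAA, 44.2% CCAAT and 6.07% an E2F-type octamer. Among genes called lower the shares were 11.4%, 38.5% and 2.39%, and among genes not called 11.6%, 38% and 3.22%.

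Regulators of G1 were called in both directions. Of 28 genes, 12 were higher and 5 lower (42.9% and 17.9%, against 16% and 19.1% of all genes), with a median of 0.191. Cdkn2b encodes p15, an inhibitor of CDK4 and CDK6 that responds to TGF-beta, and stood at 8.22 and 8.29 on siNTC arrays and 7.30 and 7.21 on siGiver arrays, 2-fold lower (adjusted p = 4.09e-05). Its neighbour Cdkn2a (-0.29) and Cdkn1a, the p21 inhibitor (-0.35), were lower, as were Ccnd3 and Ccng1, the last not without siNTC PBS replicate 1 or siGiver PBS replicate 1. Cdkn2c, another inhibitor of the p15 family, was higher by 0.54 on its brightest probe set, with its second probe set at -0.03, and Cdkn2d was higher by 0.44. The atypical repressor E2f8 was higher by 0.80 ± 0.066 and Myc by 0.45 ± 0.044. Cdkn2a, Cdkn1a, Ccnd3, Ccng1 and Cdkn2d were named after their values were seen.

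In the DNA repair and p53 target list, with a median of 0.266, 15 of 27 were higher and 1, Xrcc1 (-0.23), lower, a count that is 0 without siGiver PBS replicate 1 and 2 without siGiver PBS replicate 2. With all arrays, 55.6% of this list were higher and 3.7% lower, against 16% and 19.1% of all genes. Exo1, an exonuclease of mismatch repair, was 6.16 and 6.25 against 7.11 and 7.21 (1.94-fold). Rad51ap1, a recombination cofactor, was higher by 0.62 ± 0.072. The stress-induced genes Gadd45g (0.55) and Gadd45a (0.43) were higher too. Among 40 chromatin modifiers 16 were called (40% against 35.1% of all genes), with a median of 0.0744. Higher were 14, among them the histone variant gene H2az1 (0.50), the methyltransferases Ezh2 (0.64) and Dnmt1 (0.62) and the SWI/SNF ATPase Smarca2 (0.78 ± 0.048). Hdac5 and Kat2b were lower, and the Kat2b call was lost without siGiver PBS replicate 1 or siNTC PBS replicate 1, which left 1.

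Of 38 smooth muscle contractile genes, 20 were higher, 1 was lower and 17 did not pass, with a median of 0.143. The lower one was the desmin gene Des (-0.39 ± 0.068). The shares were 52.6% higher and 2.63% lower, against 16% and 19.1% of all genes. Without siGiver PBS replicate 1 the higher count was 13, and under the scaling on poly-A controls 2 were higher and 23 lower with a median of -0.298. Myh11, smooth muscle myosin heavy chain, stood at 11.08 and 11.06 against 11.69 and 11.64 (1.51-fold, adjusted p = 9.5e-05). Cnn1, calponin, was 10.76 and 10.85 against 11.32 and 11.38 (1.45-fold), and Myocd, the cofactor that drives this programme, was 7.85 and 7.80 against 8.41 and 8.33. The groups did not overlap in any of these. Synpo2 (0.68), Ldb3 (0.76) and Lmod1 (0.49) were higher. Acta2, at 11.70 and 11.70 against 11.84 and 11.83, differed by 0.14 ± 0.044 (adjusted p = 0.0445), a call lost when any 1 PBS array was left out.

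**Figure D4:**
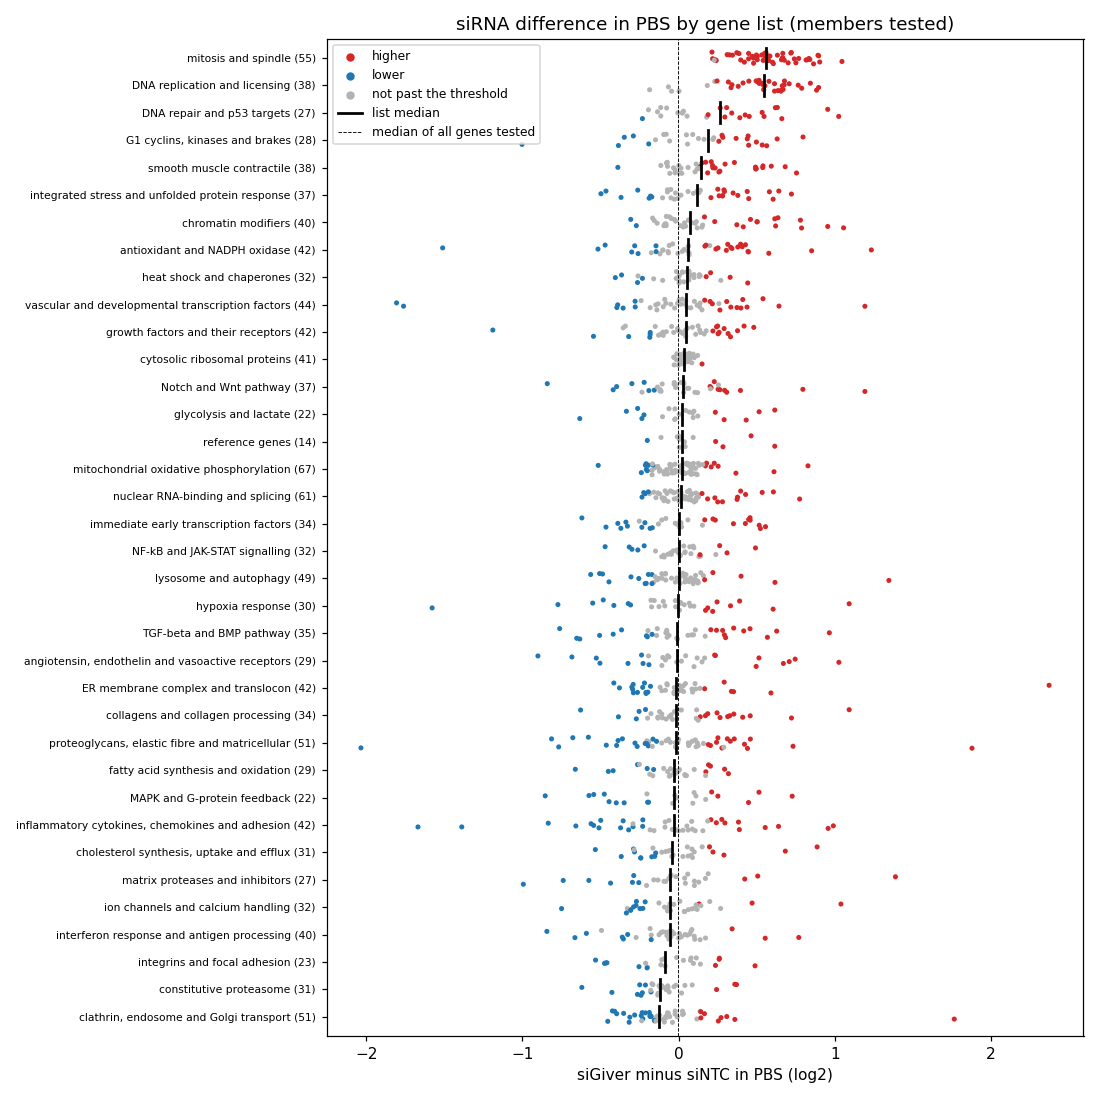
Difference between siGiver and siNTC cells in PBS (log2) of the members tested in 36 gene lists, 1 point per gene, with the list median (bar) and the median of all genes tested (dashed line). Red, blue and grey points are genes called higher, called lower and not past the threshold. Mitosis (0.562) and replication (0.544) lie furthest to the right, and ribosomal protein genes cluster at 0.0334.

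Matrix genes changed in both directions. Of 51 proteoglycan, elastic fibre and matricellular genes, 13 were higher and 16 lower (25.5% and 31.4%, against 16% and 19.1% of all genes). Mgp, matrix Gla protein, an inhibitor of arterial calcification, stood at 13.29 and 13.30 against 12.49 and 12.47, 1.76-fold lower. The basement membrane gene Nid2 was lower by 0.68 ± 0.048 and the matricellular gene Tnc, tenascin C, by 0.58 ± 0.046. The glypican Gpc6 was higher by 0.73 ± 0.050 on its brightest probe set, and of its 3 others those at 0.35 and 0.29 did not pass.

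Collagen genes were also mixed, with 12 of 34 higher and 5 lower (35.3% and 14.7%, against 16% and 19.1% of all genes). With a trended, robust estimate of the spread 8 were lower (23.5% against 22.7% of all genes). Plod2 stood at 11.59 and 11.49 against 12.64 and 12.62 (2.13-fold higher), and the other lysyl hydroxylase gene Plod1 and the collagen chaperone gene Serpinh1 were higher by 0.41 and 0.35. Lox, the oxidase that cross-links collagen and elastin, stood at 13.12 and 13.08 against 12.46 and 12.48, 1.55-fold lower. Col5a1 was lower by 0.39 ± 0.047 and Col8a2 higher by 0.72 ± 0.078. Of 27 matrix proteases and inhibitors 37% were called, near the 35.1% of all genes. The 3 higher ones became 5 with the filter at the 50th percentile, with averaged probe sets or after cyclic loess, and 6 with a trended, robust estimate of the spread. The 7 lower ones included the plasmin system genes Serpine2 (-0.44), Plau (-0.58, with a second probe set at -0.26 that did not pass) and Serpinb2 (-0.99 ± 0.096). Of 23 integrin and focal adhesion genes 4 were higher and 6 lower (17.4% and 26.1%, against 16% and 19.1% of all genes). The focal adhesion kinase gene Ptk2 was lower by 0.46 and the beta-1 integrin gene Itgb1 by 0.25, while the fibronectin receptor subunit gene Itga5 was higher by 0.49.

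In the TGF-beta and BMP pathway, ligands, receptors and targets went different ways. Of 35 genes 11 were higher and 9 lower, and the higher count was 7 without siGiver PBS replicate 1 and 6 without siNTC PBS replicate 1. With all arrays, 31.4% of the list were higher and 25.7% lower, against 16% and 19.1% of all genes. Among ligands, Tgfb3 stood at 9.94 and 9.95 against 10.89 and 10.93, 1.95-fold higher. Bmp4 was higher by 0.57 ± 0.054 and the activin subunit gene Inhbb lower by 0.63 ± 0.055. The receptor gene Tgfbr1 stood at 10.16 and 10.08 against 9.35 and 9.36, 1.7-fold lower. Skil, an inhibitor of SMADs, was lower by 0.65 ± 0.049, and Id1 and Id4, targets of BMP signals, were higher by 0.46 and 0.63. One of the other Id4 probe sets stood at 0.26 and did not pass.

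Among 42 growth factor and receptor genes 11 were higher and 6 lower, 40.5% called against 35.1% of all genes, and the lower count was 3 without siGiver PBS replicate 1 or siNTC PBS replicate 1. Pdgfa, a mitogen of smooth muscle, stood at 10.17 and 10.18 against 9.64 and 9.62 (1.46-fold lower). The EGF-family ligand Ereg was higher by 0.48 ± 0.068. In the Notch and Wnt list 10 of 37 were higher and 7 lower (27% and 18.9%, against 16% and 19.1% of all genes). The higher count was 5, 6 and 6 without siGiver PBS replicate 1, siGiver PBS replicate 2 and siNTC PBS replicate 1, and the lower count was 4 without siGiver PBS replicate 2. The Notch ligand gene Jag1 stood at 10.70 and 10.68 against 11.46 and 11.51 (1.74-fold higher), beside Hey1, and the secreted Wnt antagonist gene Frzb was lower by 0.84 ± 0.053. Of 44 vascular and developmental transcription factors 13 were higher and 7 lower (29.5% and 15.9%, against 16% and 19.1% of all genes). With a trended, robust estimate of the spread 11 were lower (25% against 22.7% of all genes).

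Vasoactive receptors were also called in both directions, 8 higher and 8 lower of 29 (27.6% each, against 16% and 19.1% of all genes). All 4 tested receptors of sphingosine 1-phosphate, a lipid that acts on vessel tone, were higher. The differences were 0.71 (S1pr1), 0.67 (S1pr2), 0.50 (S1pr3) and 0.35 (S1pr5). S1pr5 was named after its value was seen and lay below 0 under the scaling on poly-A controls. The natriuretic peptide clearance receptor Npr3 was higher by 0.75 ± 0.066. The ATP receptors P2rx4 (-0.68 ± 0.052) and P2ry1 (-0.90 ± 0.075) were lower. Agtr1a, the Ang II receptor, stood at 9.81 and 9.83 against 10.04 and 10.06, a difference of 0.24 ± 0.046 (adjusted p = 0.00593). Of 32 ion channel and calcium handling genes 3 were higher and 10 lower, with the higher count at 1 when any 1 PBS array was left out. With all arrays, 9.38% of this list were higher and 31.2% lower, against 16% and 19.1% of all genes. The cation channel gene Trpc6 was lower by 0.75 ± 0.057.

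Of 42 inflammatory genes, 14 were lower and 10 higher. Il6 stood at 8.53 and 8.59 against 8.04 and 8.0 (1.46-fold lower, adjusted p = 0.000148), and Ccl2 at 13.36 and 13.38 against 12.99 and 13.03 (1.28-fold lower). The chemokine Cxcl16 was lower by 0.84 ± 0.058 and the TWEAK receptor Tnfrsf12a by 0.66 ± 0.045. In the other direction, the interleukin 33 receptor Il1rl1 stood at 9.64 and 9.67 against 10.59 and 10.64 (1.94-fold higher), and the chemokine Cxcl6 at 4.85 and 4.95 against 5.85 and 5.93. Tnf, at -0.04 ± 0.079, did not pass, while a dimmer Tnf probe set was lower by 0.27 (adjusted p = 0.0042 over all probe sets). Of 40 interferon response genes 10 were called, 3 higher and 7 lower, 25% against 35.1% of all genes. With a trended, robust estimate of the spread these were 5 and 13, 45% against 40.8%, and with the probe sets of a gene averaged 11 were lower. Gbp2 (0.77) and Cxcl10 (0.55) were higher, and Gbp4 (-0.84), Cxcl9 (-0.66) and Psmb8 (-0.59) lower.

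Immediate early factors, which respond within minutes to hours of a stimulus, were split, with 11 higher and 10 lower of 34. These are 32.4% and 29.4%, against 16% and 19.1% of all genes. The higher count was 7 without siGiver PBS replicate 2, and the lower count was 5 without siGiver PBS replicate 1 and 6 without siNTC PBS replicate 1. Fosl1 (0.43), Fosb (0.52) and Klf4 (0.52) were higher, and the brightest Klf2 probe set was lower by 0.62 while of its others those at 0.06 and -0.14 did not pass. Egr1 stood at 10.31 and 10.33 against 10.36 and 10.30, with overlapping arrays and a difference of 0.01 ± 0.047. Fos was 6.68 and 6.77 against 6.97 and 7.18 (0.35 ± 0.076, adjusted p = 0.00963), and its other probe set, at 0.27, did not pass. The Fos call was lost without siNTC PBS replicate 1. Nr4a3, the gene beside Giver, stood at 6.17 and 6.03 against 5.61 and 5.91, a difference of -0.34 ± 0.096 (adjusted p = 0.0293). This call was lost without siNTC PBS replicate 1, siNTC PBS replicate 2 or siGiver PBS replicate 1, and the other 2 Nr4a3 probe sets, at -0.12 and -0.10, did not pass.

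Feedback regulators of kinases and G proteins were lower in 9 and higher in 5 of 22, the latter 3 without siGiver PBS replicate 2 or siNTC PBS replicate 1. With all arrays, 40.9% were lower and 22.7% higher, against 19.1% and 16% of all genes. The ERK phosphatase Dusp5 was higher by 0.73 ± 0.067, and Spry2, an inhibitor of receptor tyrosine kinase signals, lower by 0.54 ± 0.067. Rgs3, a regulator of G-protein signals, was lower by 0.85 ± 0.052 on its brightest probe set and at -0.20 on its other, which did not pass.

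In the values as deposited, stress and redox genes were called more often higher than lower. In both lists 40.5% were higher, against 16% of all genes, while 18.9% (stress) and 19% (redox) were lower, against 19.1%. Under the scaling on poly-A controls, 1 stress gene was higher and 23 were lower, and 2 redox genes were higher and 27 lower. Of 37 genes of the integrated stress and unfolded protein responses, 15 were higher and 7 lower, with a median of 0.118, and the lower count was 4 without siGiver PBS replicate 1 or siNTC PBS replicate 1. Atf5, a leucine zipper factor, stood at 10.23 and 10.21 against 10.94 and 10.95 (1.65-fold), the serine synthesis gene Psat1 was higher by 0.64 ± 0.045 and Ddit3, CHOP, by 0.58 ± 0.042. Of 42 antioxidant and oxidase genes, 17 were higher and 8 lower, the latter 5 without siGiver PBS replicate 1, siGiver PBS replicate 2 or siNTC PBS replicate 2. The glutathione transferase Gstm1 stood at 8.37 and 8.45 against 9.62 and 9.67 (2.35-fold), and Nqo1, a quinone reductase, at 11.43 and 11.45 against 12.28 and 12.30 (1.8-fold). Me1, a source of NADPH, was lower by 0.52 ± 0.052.

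Metabolic lists held calls on both sides. Of 30 hypoxia response genes 8 were higher and 7 lower, the former 5 without siGiver PBS replicate 2 or siNTC PBS replicate 2. With all arrays, 26.7% of these were higher and 23.3% lower, against 16% and 19.1% of all genes. Besides Egln3, the oxygen-regulated subunit gene Epas1 was lower by 0.77 on its brightest probe set and at -0.03 on its dim one. Gapdh, often used as a reference, was read on a control probe set of the array. It stood at 12.53 and 12.63 against 13.20 and 13.20 (1.53-fold higher), and the array's other Gapdh probe sets differed by 0.64 and 0.71. The lactate exporter Slc16a3 was lower by 0.63 ± 0.060 and its relative Slc16a1 higher by 0.52 ± 0.049. In cholesterol handling 5 of 31 were higher (16.1% against 16% of all genes) and 9 lower (29% against 19.1%), and these were 3 and 5 without siGiver PBS replicate 1 and the former 3 without siNTC PBS replicate 1. Acsl1, which activates fatty acids, was lower by 0.66 ± 0.061.

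Few genes of the ribosome were called with the estimate of the spread used for the reported calls. Of 41 cytosolic ribosomal protein genes 1 was called, Rpl35a (0.15 ± 0.044, adjusted p = 0.034), a call lost without siGiver PBS replicate 1, siGiver PBS replicate 2 or siNTC PBS replicate 1, and the others lay between -0.03 and 0.12. With that estimate 2.44% of the list was called, against 35.1% of all genes. With a trended, robust estimate of the spread 12 were called, all higher (29.3% against 18.1% of all genes). Of 67 oxidative phosphorylation genes 8 were higher and 8 lower, 23.9% against 35.1% of all genes, and Atp5f1a, the ATP synthase alpha subunit gene, was the furthest at 0.83 ± 0.046. With the trended, robust estimate 14 were higher and 16 lower, 44.8% against 40.8% of all genes, and with the filter at the 50th percentile 13 were lower, while 5 were in the fit to the 4 PBS arrays. The higher count was 5, 5 and 4 without siGiver PBS replicate 1, siGiver PBS replicate 2 and siNTC PBS replicate 1, and the lower count 4, 5 and 4 without siGiver PBS replicate 1, siGiver PBS replicate 2 and siNTC PBS replicate 2. In the constitutive proteasome, 8 of 31 were lower and 3 higher, 35.5% called against 35.1% of all genes. The lower ones included Psmd7 (-0.62) and Psmd8 (-0.43). With the trended, robust estimate 17 were lower, 54.8% against 22.7% of all genes.

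Nuclear RNA-binding proteins were called in 16 of 61 genes (26.2% against 35.1% of all genes), 12 higher and 4 lower. The lower count was 0, 2 and 2 without siGiver PBS replicate 1, siNTC PBS replicate 1 and siNTC PBS replicate 2, but 8 with the filter at the 50th percentile and 9 with the trended, robust estimate. The paraspeckle proteins Nono, at 11.86 and 11.85 against 11.91 and 11.94, and Sfpq, at 9.85 and 9.78 against 9.85 and 9.98, differed by 0.06 ± 0.043 and 0.10 ± 0.064 and did not pass. Their partner Pspc1 was higher by 0.61 ± 0.058 on its brightest probe set, with its other at 0.19 not passing. The splicing factor Rbfox2 was higher by 0.77 ± 0.067 and the Argonaute gene Ago1 by 0.54 ± 0.049.

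The same siRNA difference in the 4 arrays with Ang II, which the PBS difference does not use, was mostly alike for the genes that differed most. All 25 of the highest genes were called higher there (19.5% of all genes were), with a median of 1.18 in PBS and 1.23 with Ang II, and 1 of them, Adam19, differed between treatments (1.39 against 1.94). Of the 25 lowest genes 21 were called lower (24.8% of all genes were), 2 higher and 2 neither, with a median of -1.19 against -0.94. The PBS and Ang II differences themselves differed in 10 of these 25, against 707 of all 11373 genes (6.22%). These 25 were chosen by their PBS difference, which is also part of that test. How far this choice bears on the share of changes and the smaller median difference with Ang II was not tested. The 25 highest genes were chosen by the same rule.

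For Ptgs2 the difference was -1.67 in PBS and -0.17 with Ang II (adjusted p of the change 0.00083), and for Trib2 it was -1.14 and -0.04. Olr1 and Serpinb2 changed sides, from -1.26 to 0.59 and from -0.99 to 0.76. Nox1 (-1.51 in both), Egln3 (-1.58 and -1.30), Cdkn2b (-1.0 and -1.10) and Ass1 (-1.01 and -1.02) were lower in both treatments. Among all genes called higher in PBS, 1353 were also called higher with Ang II, 24 lower and 441 neither, and among those called lower, 1570 were lower, 49 higher and 550 neither. The spread of a gene is estimated once for both treatments.

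**Figure D5:**
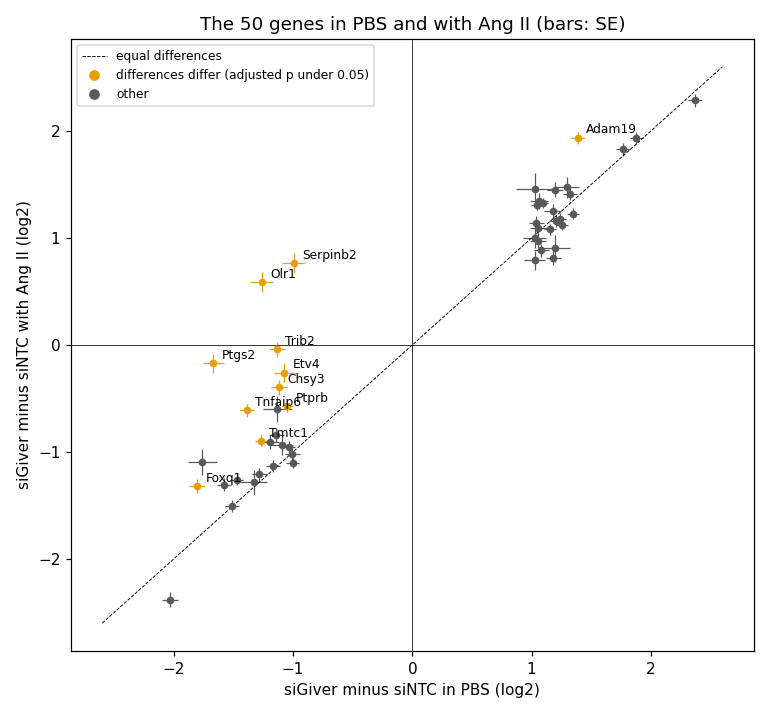
siGiver minus siNTC difference with Ang II (vertical, log2) against that in PBS (horizontal, log2) for the 25 highest and 25 lowest genes in PBS, with SE bars and the line of equal differences. Orange points are the 11 genes whose differences differ between treatments (adjusted p under 0.05). The higher genes lie along the line, and Ptgs2 (-1.67 and -0.17), Olr1 (-1.26 and 0.59) and Serpinb2 (-0.99 and 0.76) lie furthest above it.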

How the data were processed

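The deposited values are log2 levels, 1 per probe set and array, made with RMA and Partek per the submitters' processing notes, with no versions given in the sources used here. RMA corrects background, equalises the distribution between arrays and summarises each probe set, so a shift shared by most transcripts is removed. Array medians lay between 6.15 and 6.19. Arrays give no read depth, and precision is limited by their number.

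Symbols came from GEO's annotation of the array, updated by gene identifier in a RefSeq table (20764 of 20832 matched). In addition, 436 probe sets carry several symbols, and 9780 that are not controls carry none. The array holds 57 controls. Some of them carry 1 symbol, Gapdh among these, and were kept with the probe sets of genes. The filter was the 30th percentile of the mean over 8 arrays (4.81). Group means were estimated from all 8 arrays in 1 model (limma 3.58.1, R 4.3.3, with 4 residual and 3.53 prior degrees of freedom), with Benjamini-Hochberg adjustment over 11373 genes. The labels do not say whether equal replicate numbers pair the arrays, and deviations of equal numbers correlated at 0.0951 in PBS. No block was used. The members, the 42 lists and the alternatives were chosen with earlier results of these data known. Named genes were the 25 with the largest called differences per direction whose arrays did not overlap (clone and locus names skipped), up to 6 members per list with the smallest p, and Acta2, Agtr1a, Ccl2, Egr1, Fos, Il6, Nox1, Nr4a3, Tnf, Nono, Sfpq, Emc10, Mfge8, Clta and Aspn, and some were left out. Others are said to be named after their values were seen. The lists hold 1566 distinct members, with 1306 tested and 93 under the filter value. Lists were counted, not tested. On simulated data for 11373 genes, 50 genes were changed at each fold and the rest left equal. There 38% of 1.25-fold, 88% of 1.5-fold and 100% of 2-fold changes were recovered, with 9 false among 172 calls. In the data 35.1% of genes were called, so these rates do not carry over to the calls reported.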

Additional observations from a re-analysis of the deposited data

Results flagged for a closer look

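For 48 of the genes named, the difference between siGiver and siNTC cells in PBS differed from that with Ang II in a test of the change itself (interaction term in limma, adjusted p under 0.05), which picked them out for a second look. Values below are the PBS difference minus the Ang II difference on the log2 scale, and a negative value means that siGiver cells stood relatively lower in PBS. Under the scaling on poly-A controls every such value is lower by 0.68, with a median over all genes of -0.658 in place of 0.0218.

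Among the genes that were lowest in PBS the change was largest for Olr1 (-1.85), Serpinb2 (-1.76), Ptgs2 (-1.50) and Trib2 (-1.09), followed by Etv4 (-0.81), Tnfaip6 (-0.78), Chsy3 (-0.72), Foxq1 (-0.49), Ptprb (-0.48) and Tmtc1 (-0.37). Chsy3 and the transmembrane gene Tmtc1 stood at -1.12 and -1.27 in PBS, and the siGiver level of Chsy3 lay below the filter value. Adam19 was the one gene among the 25 highest (-0.55). Immediate early and feedback genes had negative values, Nr4a3 (-1.20), Fosl1 (-1.07), Egr1 (-0.96), Fosb (-0.80), Fos (-0.64) and Myc (-0.61) and Dusp5 (-1.52), Spry2 (-1.10) and Rgs3 (-0.40). Interferon-related genes had positive values, Cxcl9 (1.61), Gbp4 (1.06), Gbp2 (0.86), Psmb8 (0.65) and Cxcl10 (0.63).

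Matrix and adhesion genes had Tnc (-0.95), Itga5 (-0.74), Nid2 (-0.42), Col5a1 (-0.40), Gpc6 (-0.35) and Mgp (-0.31). Signalling genes had Tgfbr1 (-0.51), Pdgfa (-0.48), Tgfb3 (-0.47) and Frzb (-0.38), and receptors and channels S1pr3 (-0.82), Il1rl1 (-0.71), P2ry1 (-0.70), Tnfrsf12a (-0.57) and Trpc6 (-0.51). The chemokine gene Cxcl6 stood at 0.63 and the stress gene Ddit3 at 0.65. Cell-cycle and other genes had Cdt1 (0.40), Gins1 (0.39), Cdkn1a (0.35) and Nqo1 (0.27), and Ldb3 (-0.37) and Pspc1 (-0.41). With 2 arrays per group no array could be set apart from the others of its group.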

How the results depend on the processing

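The number of genes called in PBS was 3987 as reported and 3546 with no filter, 4151 with the filter at the 50th percentile, 3811 with probe sets of 1 gene averaged, 4034 after cyclic loess, 3856 with array medians subtracted, 3444 in a fit to the 4 PBS arrays and 4635 with trended and robust moderation. Leaving out 1 PBS array gave 2771 to 3146 calls, with 1433 to 1766 lower genes, the fewest without siGiver PBS replicate 1. The number of genes whose PBS and Ang II differences differed (707) was 467 with no filter, 1490 with trended and robust moderation and 356 to 436 without 1 array. With equal replicate numbers as a block, 3800 genes were called in PBS and 553 changed between PBS and Ang II. Over 6 pairs of groups the deviations of equal numbers correlated at -0.174 to 0.0951. These correlations do not settle whether equal numbers share a culture or batch, which the labels do not say. Among 174 named genes the block ended the calls of Rpl35a (adjusted p 0.0501 in limma) and Acta2 (0.0557).

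Scaling on the poly-A controls, chosen after seeing the data, lowers every PBS difference by 0.44 by construction. It gave 9866 genes called in PBS (184 higher and 9682 lower), 4707 higher and 529 lower with Ang II, and 11007 that changed between PBS and Ang II. Of 174 named genes, 121 kept their side of the threshold and direction, 33 were no longer called, 6 became called and 14 turned below 0, namely Acta2 (-0.30), Rpl35a (-0.29), Emc6 (-0.27), Agtr1a (-0.21), Emc1 (-0.15), Mfap5 (-0.13), Fos (-0.090), Serpinh1 (-0.088), S1pr5 (-0.087), Plod1 (-0.031), Serpinf1 (-0.018), Gadd45a (-0.015), Fosl1 (-0.014) and Nox4 (-0.013). Where the other counts moved, the cause was not tested. The precision of all values is limited by 2 arrays per group.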

Other observations

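Probe sets without a gene symbol in the annotation also differed between siGiver and siNTC cells in PBS. Of 5236 tested together with the named ones, 457 were higher and 857 lower (25.1%), against 28.8% of 16132 probe sets with 1 symbol. Controls were left out here. At least 1.5-fold changes were found in 68 higher and 155 lower ones, with differences from -2.02 to 1.83. They were not named here.

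The ribosomal 5S RNA control on the array read 8.15 and 8.24 on the siNTC PBS arrays and 7.64 and 7.62 on the siGiver PBS arrays, a difference of -0.57, and -1.16 with Ang II. Of 3432 genes with several probe sets past the filter, 54 had probe sets called in opposite directions and 444 had all of them called in 1 direction. Gpx4, a lipid peroxidase, was 1 of the former, at -0.47 on its bright and 0.30 on its dim probe set, and the cholesterol exporter Abcg1 another, at -0.53 and 0.25.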
